A study of Caenorhabditis elegans with 2 samples.

Results

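In whole young adult Caenorhabditis elegans, 240 reproducible CHD-7 peaks had their summit inside or within 200 bp of a gene annotated as ncRNA, lincRNA or antisense RNA, and more than 100 bp from small RNA genes of the tRNA, snoRNA, snRNA or rRNA classes. They are 12.7% of the reproducible list (95% Wilson interval 11.3 to 14.3%, which covers counting error only, as do all intervals given), and the rest of the list consists of 311 peaks within 100 bp of such small RNA genes and 1333 other peaks. The 240 peaks touched 313 genes. The usual lower length of a long non-coding RNA is 200 bp, and only 108 of the 313 genes (34.5%) were that long, so the peaks are called here by their rule, as peaks at annotated non-coding RNA genes, and not as peaks at long non-coding RNA genes.

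CHD-7 is an ATP-dependent chromatin remodeller with chromodomains, and its human relative CHD7 is the gene affected in most people with CHARGE syndrome. Such remodellers slide or evict nucleosomes at promoters and enhancers. In the worm annotation the ncRNA class is a mixed one. It holds structured RNAs of known function, such as the RNA of ribonuclease P, and a much larger number of short transcripts of no assigned function. The lincRNA class holds transcripts between protein-coding genes, and the antisense RNA class holds transcripts that run opposite to a coding gene.

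The material was strain OP609, unc-119(tm4063) III; wgIs609, in which the integrated transgene wgIs609 makes CHD-7 with a C-terminal GFP-FLAG tag beside the worm's own chd-7 gene. Mixed-sex young adults were taken 67 hours after synchronisation as starved L1 larvae obtained by bleaching, as 2 biological replicates of 1 group. Chromatin was sonicated and, per the sample descriptions, precipitated with an antibody against GFP. The antibody field of the labels names chd-7 instead, so whether untagged CHD-7 was also precipitated is not settled by the labels. Whole animals were used, so tissues are pooled and a peak bound in few cells cannot be told apart from one bound weakly in many. Each list was called by the authors against 1 control alignment, which was not analysed here, and read depth is unknown. With 1 group there is no comparison between conditions, so what follows is a description of where the peaks lie, with no test.

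The windows printed next are 151 bases of WBcel235 (the same sequence as ce11), 75 either side of the summit, 5′ to 3′ on the plus strand, with capitals marking runs that hold GAGAGA or its reverse complement TCTCTC. F26F4.14 and linc-128 are shown as peaks of very high signal, and mrpr-1 as a structured RNA gene. W06B11.7 and F54D5.22 are peaks of high signal that hold the repeat in coding promoters. F52H2.13 and Y111B2A.33 were chosen after their values were seen, for long GA runs, and T13H2.7 lies at the end of a GT repeat.
F26F4.14, chrIII:4899864-4900014: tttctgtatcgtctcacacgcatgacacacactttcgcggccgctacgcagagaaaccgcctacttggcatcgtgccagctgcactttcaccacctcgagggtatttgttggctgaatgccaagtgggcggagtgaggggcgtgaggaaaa
linc-128, chrV:1151425-1151575: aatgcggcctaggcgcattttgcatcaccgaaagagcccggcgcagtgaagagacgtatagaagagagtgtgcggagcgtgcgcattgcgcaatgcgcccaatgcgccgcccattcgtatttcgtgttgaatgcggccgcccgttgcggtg
mrpr-1, chrII:7200209-7200359: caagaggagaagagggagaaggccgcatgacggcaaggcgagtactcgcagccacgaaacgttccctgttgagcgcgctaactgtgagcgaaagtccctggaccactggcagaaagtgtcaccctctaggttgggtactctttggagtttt
W06B11.7, chrX:5841217-5841367: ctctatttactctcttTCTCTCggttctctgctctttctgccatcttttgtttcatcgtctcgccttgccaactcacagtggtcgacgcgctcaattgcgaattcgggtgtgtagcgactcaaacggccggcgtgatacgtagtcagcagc
F54D5.22, chrII:11545398-11545548: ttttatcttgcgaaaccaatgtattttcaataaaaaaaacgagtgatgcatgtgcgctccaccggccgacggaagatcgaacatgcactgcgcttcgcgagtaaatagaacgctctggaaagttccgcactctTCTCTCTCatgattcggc
F52H2.13, chrX:2536541-2536691: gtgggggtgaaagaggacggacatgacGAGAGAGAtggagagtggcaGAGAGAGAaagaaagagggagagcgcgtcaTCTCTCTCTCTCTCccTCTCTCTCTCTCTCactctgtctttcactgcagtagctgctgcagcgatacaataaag
Y111B2A.33, chrIII:12549720-12549870: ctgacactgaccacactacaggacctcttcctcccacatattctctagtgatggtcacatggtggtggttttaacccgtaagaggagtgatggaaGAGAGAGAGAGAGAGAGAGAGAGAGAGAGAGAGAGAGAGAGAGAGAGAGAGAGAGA
T13H2.7, chrX:4606570-4606720: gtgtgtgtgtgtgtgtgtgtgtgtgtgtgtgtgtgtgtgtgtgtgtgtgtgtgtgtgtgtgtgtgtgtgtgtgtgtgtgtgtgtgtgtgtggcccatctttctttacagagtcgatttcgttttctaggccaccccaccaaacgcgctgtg
The F26F4.14, linc-128 and mrpr-1 windows hold no GAGAGA, whereas Y111B2A.33 holds an unbroken GA run of 57 bases that reaches the edge of the window.

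Most of the genes were short. The 313 genes had a median length of 149 bp (lowest 51, highest 14770 bp). Among all 8058 annotated genes of the 3 classes the median was 141 bp and 21.3% reached 200 bp, and among the 2038 genes that had a candidate peak but no reproducible one 27.3% did. By class, 300 of the 313 genes were of the ncRNA class, 10 were lincRNA genes and 3 antisense RNA genes. Reproducible peaks thus met 3.86% of 7764 ncRNA genes (3.46 to 4.32%), 5.15% of 194 lincRNA genes (2.82 to 9.23%) and 3% of 100 antisense RNA genes (1.03 to 8.45%), and these intervals overlap. The 10 lincRNA genes had a median of 1764.5 bp, but linc-54, at 169 bp, and linc-2, at 127 bp, were under 200 bp.

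**Figure D1:**
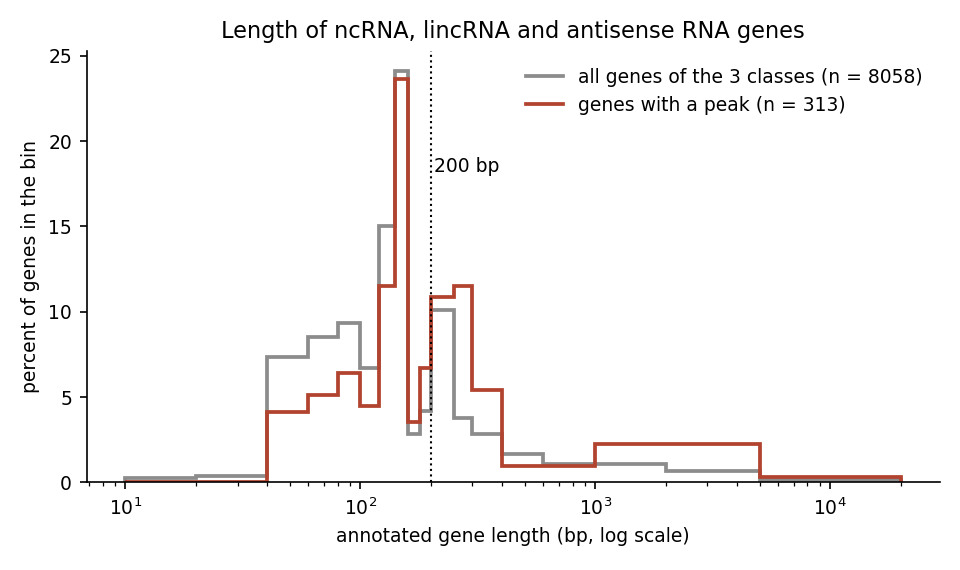
Percent of genes (vertical axis) per bin of annotated length in bp (horizontal axis, log scale, bins of unequal width) for all 8058 genes of the 3 classes in grey and the 313 genes with a peak in red. Both curves peak between 140 and 160 bp, below the dotted line at 200 bp, and the red curve lies above the grey one between 250 and 400 bp.

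Candidate peaks at these genes entered the reproducible list more often than candidates at large. The pooled list held 30000 entries, peaks and background together, of which 6.28% were in the reproducible list. Of the 2015 pooled candidates chosen by the same rule, 240 were in it (11.9%, 10.6 to 13.4%). Candidates close to small RNA genes, within 100 bp, entered it far more often, at 52.9% of 588, and all remaining candidates at 4.87% of 27397. The share was 12.1% for candidates at ncRNA genes, 15.5% of 84 at lincRNA genes (9.27 to 24.7%) and 8% of 50 at antisense RNA genes (3.15 to 18.8%). The groups also differed in genomic place. Coding exons held 40.6% of all 30000 candidates, 13.3% of all reproducible peaks and 11.7% of the unlisted candidates at these genes. Between coding genes lay 28%, 54.2% and 52.6% of them. The part of place in the higher share at these genes was not tested.

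Signal, the authors' peak value, is used here only to rank and describe peaks within a list. At the 240 peaks it had a median of 224.6 in the reproducible list (lowest 166.2, highest 1357.0). The 1333 other peaks away from small RNA genes had a median of 209.6, and the 311 peaks at small RNA genes 251.4. At the top of the list they were more frequent than in the list as a whole: 25 of them (10.4%, 7.16 to 14.9%) ranked among the 100 peaks of highest signal, against 55 of the 1333 others (4.13%, 3.18 to 5.33%). Of the 311 peaks at small RNA genes 20 did (6.43%, 4.2 to 9.72%), an interval that overlaps. Of the 10 highest peaks in the whole list, 4 were at non-coding RNA genes.

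The 2 highest summits, 1357.0 and 1100.5, lay in the same interval, chrI:9382824-9383304, at ranks 3 and 7. Both fell inside the antisense RNA gene anr-20. The summit of 1357.0 was also inside F16A11.7, a symbol that the annotation gives to a gene of 191 bp on each strand at the same place, and the summit of 1100.5 lay 20 bp outside it. Both summits lie in an intron of ppfr-1, which encodes a regulatory subunit of a protein phosphatase, and the interval, which counts for both summits, ranked 3 in replicate 1 (signal 735.9) and 4 in replicate 2 (629.3). Around the summit of 1357.0 the DNA held a run of 83 alternating G and T bases.

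F26F4.14, a gene of 149 bp, had a summit 11 bp inside its 5′ end with a signal of 1087.2, at rank 8 in the list, 10 in replicate 1 (538.2) and 8 in replicate 2 (533.9). The nearest coding 5′ end was that of tag-340, with the summit 569 bp upstream of it. T04C10.8 and its opposite-strand partner T04C10.9 shared a summit of 902.6, at rank 18 in both replicates (448.6 and 455.0), 465 bp upstream of epn-1, an epsin gene for endocytosis. Y65B4BR.10 (707.6, replicate ranks 28 and 58) lay 234 bp upstream of wwp-1, which encodes a ubiquitin ligase. The opposite-strand genes W06B11.7 and W06B11.9 (695.2, ranks 49 and 37) lay 300 bp upstream of puf-9, which encodes a Pumilio-family RNA-binding protein.

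Further down the same order, F54D5.22 (678.4, ranks 63 and 44) lay in an intron of dhgd-1, 228 bp upstream of dnj-13, a DnaJ co-chaperone gene. T13H2.7 and T13H2.9 (661.3, ranks 33 and 83) lay 717 bp upstream of spat-3, a RING-domain gene. F52D10.7 with F52D10.9 and F52D10.12 (639.6) lay 556 bp upstream of ftt-2, which encodes a 14-3-3 protein, and it ranked 146 in replicate 1 but 31 in replicate 2. Of the 15 highest peaks it was the one outside the first 100 of a replicate. T28F4.7 (647.9) lay in an intron of T28F4.1, and H37A05.6 (638.3) lay between genes, 2500 bp upstream of letm-1, which encodes a mitochondrial membrane protein.

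**Figure D2:**
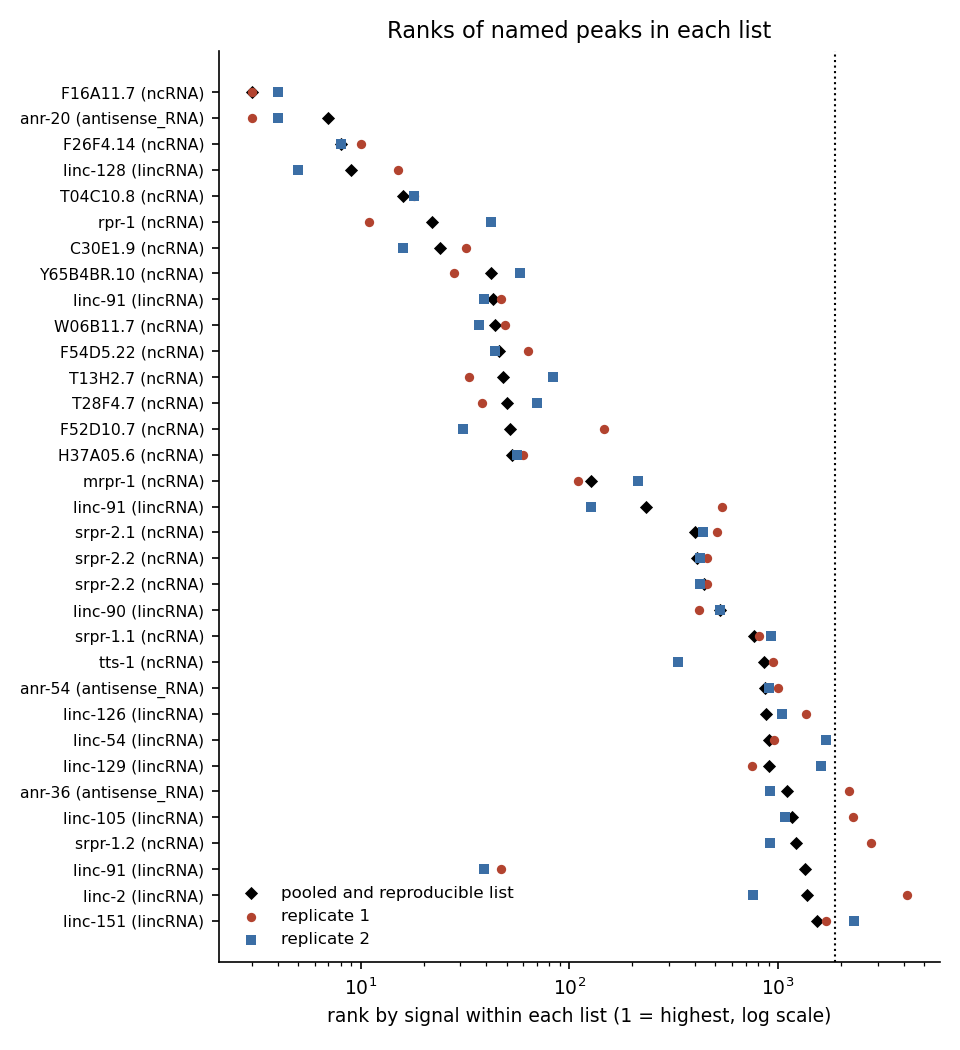
Rank by signal (horizontal axis, log scale, 1 is highest) in the pooled and reproducible list (diamonds), replicate 1 (circles) and replicate 2 (squares) for the 15 highest peaks and for peaks whose nearest gene is a lincRNA, antisense RNA or symbol-bearing ncRNA gene (1 row per peak, so that linc-91 has 3 rows). The dotted line marks the rank equal to the length of the reproducible list, and the 14 highest peaks other than F52D10.7 stay within rank 100 in both replicates.

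Genes of structured RNAs made by RNA polymerase III were among the ncRNA genes with a peak. The class has 14 genes with a symbol of their own in place of a sequence name, and 7 of them had a peak. Over all 7764 genes of the class the share with a peak was 3.86%. The 14 are grouped by symbol and not by polymerase. tts-1 is among those with a peak, and tts-2, rncs-1 and yrn-1 are among those without (all described below). rpr-1, the RNA subunit of ribonuclease P, which trims tRNA precursors, had a summit 17 bp inside its 5′ end with a signal of 855.9 at rank 22, and ranked 11 in replicate 1 (501.2) and 42 in replicate 2 (356.7). The gene, of 253 bp, lies at chrI:13463955-13464207 in an intron of ints-8, an Integrator complex subunit, on the opposite strand. mrpr-1, the RNA of ribonuclease MRP, which acts on ribosomal RNA precursors, had a summit 51 bp inside its 5′ end with a signal of 475.8 at rank 127, and ranked 110 (259.8) and 214 (203.5) in the replicates. Both genes ranked higher in replicate 1 than in replicate 2.

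The srpr genes encode the RNA of the signal recognition particle, which brings secretory proteins to the endoplasmic reticulum. Of 5 srpr genes 4 had a peak, beside 3.86% of all genes of the ncRNA class. The 4 were all on chromosome III, and the one without was srpr-3. srpr-2.1 had a signal of 306.7, srpr-2.2 had 2 summits of 305.2 and 296.3, srpr-1.1 had 238.0 and srpr-1.2 had 196.1. Replicate ranks differed to unlike degrees: srpr-2.1 ranked 507 and 436, whereas srpr-1.2 ranked 2792 in replicate 1 and 910 in replicate 2. The only change of order was between srpr-1.2 and srpr-1.1, which ranked 814 and 922 and so lay close to srpr-1.2 in replicate 2. The srpr-1.1 summit lay 134 bp beyond the gene, in a coding exon of pals-26. The DNA around srpr-2.1, srpr-2.2 and srpr-1.2 has near-identical copies elsewhere in the genome (1, 3 and 3 copies of at least 90% identity over at least 100 bp), so the authors' read placement could have moved signal between copies and these values are uncertain.

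tts-1, a non-coding RNA known for association with ribosomes in long-lived worms, had summits on both sides. One lay 75 bp beyond its 3′ end with a signal of 224.7 and ranks of 944 and 332, and the other lay 96 bp upstream of its 5′ end, inside the short gene F09E10.14, with a signal of 207.0 and ranks of 804 and 1002. No reproducible peak was assigned to the 4 other genes that were looked up whatever their values. tts-2 had a pooled candidate of signal 91.3 at rank 9252. rncs-1, which inhibits Dicer in worms, had a candidate of 151.3 at rank 2343, and the nearest reproducible summit was 312 bp away. lep-5, a lincRNA of the developmental timing pathway, and yrn-1, a Y RNA, had no candidate within 200 bp, and the nearest reproducible summits were 2110 and 6668 bp away.

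Among lincRNA genes linc-128 had the highest peak. Its summit on chromosome V had a signal of 1045.2 and lay 594 bp into the gene of 2302 bp, with the nearest coding 5′ end, that of the calmodulin gene cmd-1, 4771 bp away. It ranked 15 in replicate 1 (465.4) and 5 in replicate 2 (598.1). linc-91 had 3 summits, of 700.7, 385.2 and 189.1, and the summits of 700.7 and 189.1 overlapped the same entry of each replicate (ranks 47 and 39). linc-91 lies upstream of chd-7 itself, with the summits of 700.7 and 385.2 lying 2814 and 877 bp upstream of the chd-7 5′ end. The strain carries a chd-7 transgene, whose part in these signals was not tested. Without these 3 peaks, the only ones within 30 kb of chd-7 or unc-119, the count is 237.

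The other lincRNA genes had lower peaks. linc-90 had 280.1 (ranks 420 and 528), 170 bp upstream of gei-4. linc-129 had 255.0 and 219.1, linc-126 221.8, linc-54 219.6, linc-105 198.8, linc-2 187.1 and linc-151 179.0. linc-153 had 168.5, at rank 987 in replicate 1 and 12014 in replicate 2, far lower in the second list. The linc-153 summit also lay inside the ncRNA genes T27F2.5 and T27F2.6, and the linc-129 summit of 255.0 inside the ncRNA gene K11D9.8, and neither can be assigned to 1 of its genes. Over symbols, 10 of 170 linc- genes and 3 of 57 anr- genes had a peak. The antisense RNA genes other than anr-20 were anr-54 (222.8, ranks 995 and 900), in an intron of the phosphatase gene vhp-1, and anr-36 (202.6, ranks 2186 and 912), 50 bp upstream of C37C3.9.

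C30E1.9 on the X chromosome, at 14770 bp the longest of the genes with a peak, had 6 summits, more than any other gene. They had signals of 827.9, 511.1, 421.5, 198.3, 187.1 and 171.1. The first 4 lay between 113 bp upstream and 1655 bp downstream of its 5′ end, and the last 2 lay 14182 and 14819 bp downstream, at its 3′ end, so no summit fell in the long middle of the gene. The 4 summits at the 5′ end came from 2 intervals, of 689 and 1307 bp, the second of which was the widest of the whole list. In all, 17 genes had 2 or more summits. Some of these genes overlap and share the same summits, as anr-20 and both F16A11.7 genes do, so the separate places are fewer.

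The rule and the short length of the genes together keep most summits close to an annotated 5′ end, so the distances given next are a description. Of the 240, 138 (57.5%, 51.2 to 63.6%) were inside the nearest gene, against 46.1% of the 1775 candidates at such genes that were not in the list. The remaining 102 lay a median of 75.5 bp outside. Measured along the strand of the nearest gene, the summit was a median of 73.5 bp downstream of the annotated 5′ end (interval of the median 55 to 96 bp, lowest 200 bp upstream, highest 14819 bp downstream). In the 61 cases where the summit lay inside an ncRNA gene of 100 to 200 bp, its median position was 40% along the gene from the 5′ end (30.9 to 48.7%).

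**Figure D3:**
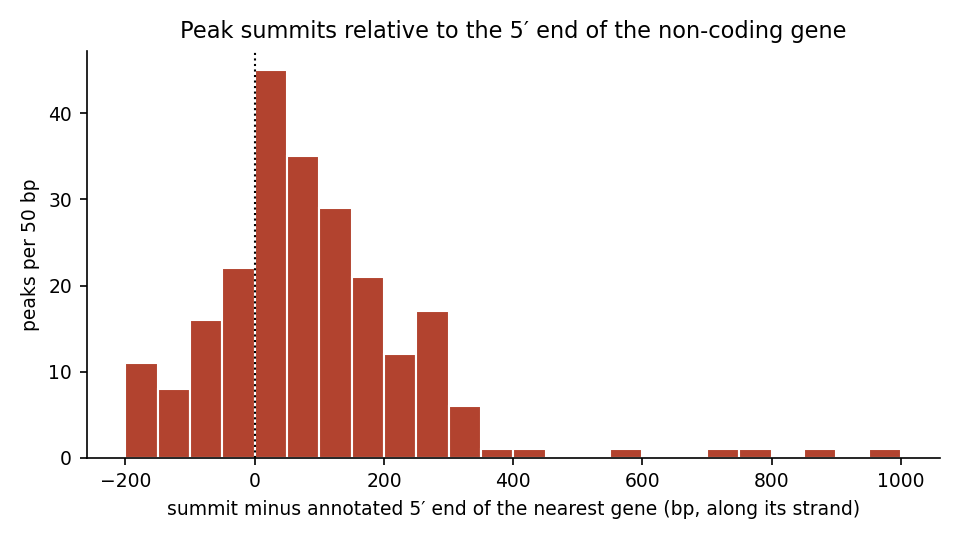
Peaks per 50 bp (vertical axis) by the distance of the summit from the annotated 5′ end of the nearest non-coding gene, along its strand (horizontal axis, bp). The highest bin, with 45 peaks, is the first one downstream of the 5′ end, and 11 peaks beyond 1000 bp are not drawn.

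Many of these genes overlap a partner, so a summit often belongs to several. There were 160 peaks at 1 gene, 67 at 2, 11 at 3 and 2 at 4. At 61 peaks (25.4%, 20.3 to 31.3%) the genes included an overlapping pair on opposite strands, against 22.8% of the candidates not in the list, and ChIP-seq does not tell which strand is served. Pairs were often at coding promoters, taken as the window from 1000 bp before to 200 bp after an annotated 5′ end. Of peaks at pairs 54.1% (41.7 to 66.0%) were in such a window, and of peaks not at a pair 32.4% (26.0 to 39.6%).

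Over the whole set, 91 peaks (37.9%, 32.0 to 44.2%) were in a coding promoter, and 58 (24.2%) were with a narrower window of 500 bp before to 100 bp after the 5′ end. The 37.9% is close to the 37.5% of all reproducible peaks and above the 23.1% (21.2 to 25.1%) of candidates at the same kind of gene that were not in the list. The share was 50% in the 60 peaks of highest signal (37.7 to 62.3%) and 28.3% in the 60 of lowest (18.5 to 40.8%). Examples are F26D10.23, with a peak of 604.9 that lay 431 bp upstream of hsp-1, a constitutive Hsp70 chaperone gene, and F56F3.11 with F56F3.10, with a peak of 584.3 that lay 266 bp upstream of the ribosomal protein gene rps-1. Both were chosen after their values were seen. At such places the non-coding gene and the coding promoter cannot be told apart as the site of the peak.

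Of the 240 summits, 155 (64.6%, 58.3 to 70.4%) lay between coding genes, 69 (28.8%) in their introns, 6 in a 5′ UTR, 6 in a 3′ UTR and 4 in coding exons (1.67%, 0.65 to 4.21%). Coding exons held 17.9% of the other reproducible peaks and 11.7% of the candidates at non-coding RNA genes that were not in the list. Of the 85 inside a coding gene, 60 (70.6%) had their nearest non-coding gene on the opposite strand, as did 70.7% of the 841 candidates of that kind not in the list. Neither in a coding gene nor in a coding promoter were 77 peaks (32.1%, 26.5 to 38.2%), with linc-128 and H37A05.6 among them.

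Chromosome X carried 63 of the 240 peaks, V 47, III 36, I 33, IV 31 and II 30. X has 31.8% of the annotated genes of these classes and 26.2% of the genes with a peak. Of genes with a candidate, 10.1% on X (8.18 to 12.3%, 815 genes) had a reproducible peak, and on III 19.3% (14.8 to 24.9%, 233 genes). The other chromosomes lay between, from 11.9% on II to 16.1% on I. Of the 240 peaks 26.2% (21.1 to 32.2%) were on X, and of the 311 peaks at small RNA genes 36.3% (31.2 to 41.8%), with overlapping intervals. The share on X was 17.3% (15.4 to 19.5%) of the 1333 other reproducible peaks. It was 33.5% (31.4 to 35.8%) of the 1775 candidates at such genes that were not in the list.

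Both replicates held most of these peaks at a high rank. The reproducible list was itself made from both replicates, so this describes the list and is no separate support. In replicate 1, the entries of highest signal, equal in number to the reproducible list, met 191 of the 240 (79.6%), beside 77.2% of all reproducible peaks, and those of replicate 2 met 194 (80.8%), beside 77.1%. Both met 154 (64.2%, 57.9 to 70%), beside 58.3% of all reproducible peaks, so the shares were near those of the whole list. Neighbouring summits that overlapped the same replicate entry were each counted as met. This differed by signal: of the 60 peaks of highest signal both replicates met 60, and of the 60 of lowest signal 6. Since signal in the pooled list is made from the same reads, the difference describes the peaks and is no separate support. For 4 peaks (1.67%) replicate 1 had no entry, beside 2.49% of all reproducible peaks. Replicate 2 had an entry for every one of the 240, and lacked one for 0.318% of all reproducible peaks. There were 15 peaks with a rank beyond 5000 in a replicate. The share over the whole list is not given here, so the 15 are not a trait of these peaks. The widest split was a peak of signal 302.2 on chromosome IV, at rank 29679 in replicate 1 and 299 in replicate 2.

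**Figure D4:**
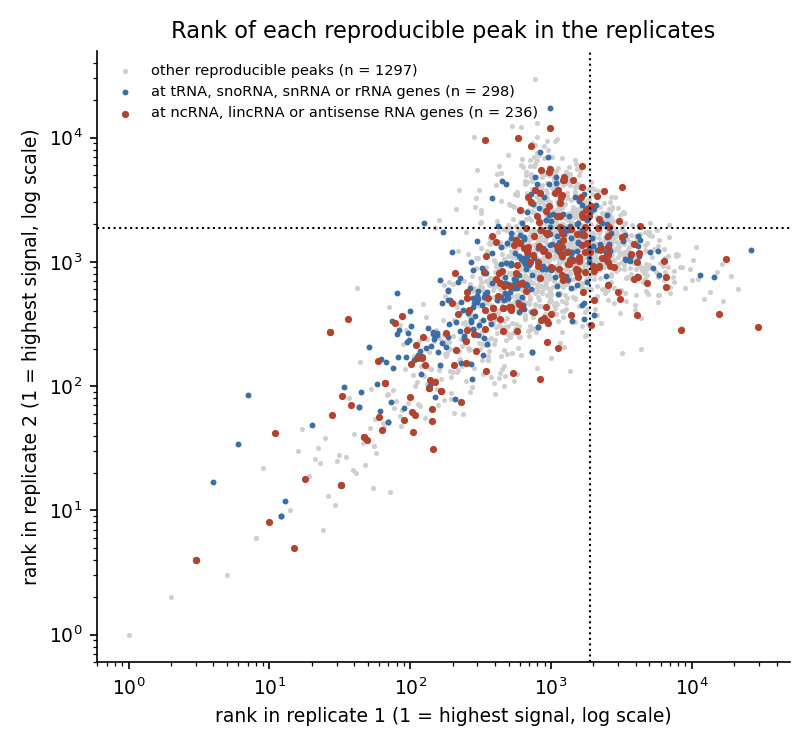
Rank in replicate 1 (horizontal axis) against rank in replicate 2 (vertical axis), both on log scales with 1 as the highest signal, for reproducible peaks with an entry in both lists: 236 at non-coding RNA genes in red, small RNA genes in blue and others in grey. Dotted lines mark the rank equal to the length of the reproducible list, and red points run along the diagonal to its lower left end and scatter widely near the dotted lines.

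GC content was higher at these peaks than at the other reproducible peaks away from small RNA genes. The median GC content of the windows was 49.7% (49.0 to 51.7%), against 46.4% (45.7 to 47.0%) at the other reproducible peaks, 48.3% at small RNA genes (47.7 to 49.7%, which overlaps) and 45.7% at candidates of the same kind that were not in the list. The ratio of observed to expected CpG had a median of 1.06, close to the 1.07 of the other reproducible peaks and above the 0.954 of those candidates (0.932 to 0.981).

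The GA repeat, searched as GAGAGA on both strands, was the most frequent of 8 motifs at these peaks. It was in 105 of the 240 windows (43.8%, 37.6 to 50.1%), in 30% of the other reproducible peaks (27.6 to 32.5%), in 20.9% of those at small RNA genes (16.8 to 25.8%), in 23.3% of candidates at non-coding RNA genes not in the list (21.4 to 25.3%) and in 14.1% of all 30000 candidates. GC content differed between these groups. Among windows with 45 to 55% GC the share was 51.8% (43.6 to 59.9%) at the peaks and 35.6% (31.9 to 39.5%) at the other reproducible peaks. On each of the 6 chromosomes the share was higher than at other reproducible peaks, from 30 against 26.3% on II to 58.1 against 30.7% on IV, though with 30 to 63 peaks a chromosome most of these intervals overlap. Outside coding genes it was 48.4% (40.7 to 56.2%) against 33.9% (30.5 to 37.5%), and in coding promoters 40.7% (31.1 to 50.9%) against 30.5% (26.8 to 34.6%), where the intervals overlap. No test was made of these differences.

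**Figure D5:**
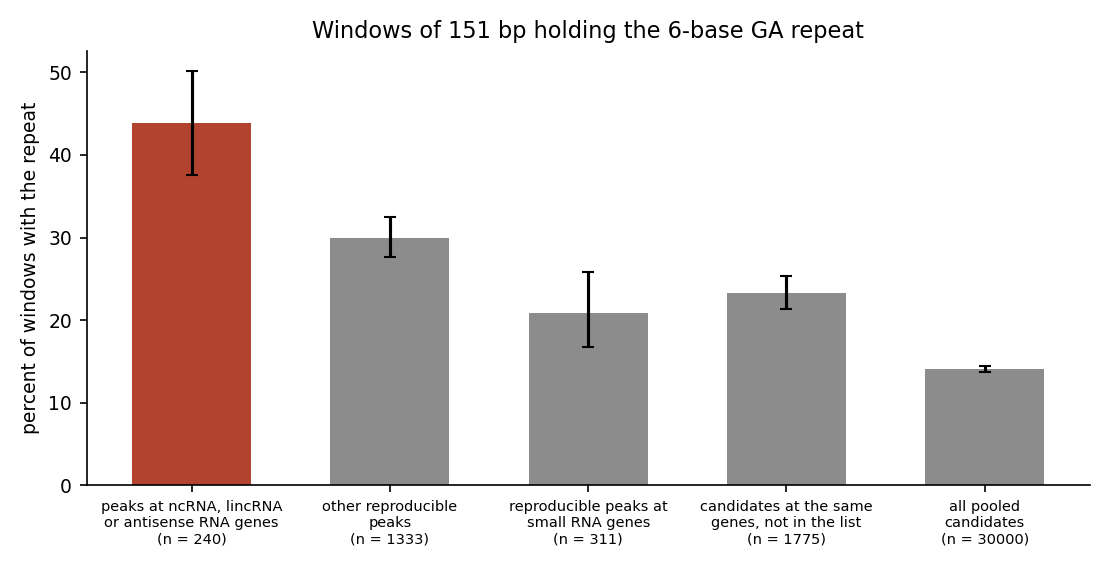
Percent of windows of 151 bp that hold the 6-base GA repeat on either strand (vertical axis, from 0) in 5 groups of peaks, with 95% Wilson intervals as error bars. Peaks at non-coding RNA genes, in red, reach 43.8%, and their interval does not overlap that of any other group drawn.

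In the 105 windows the repeat nearest the summit was a median of 31.5 bp from it, and in 45 it was within 25 bp. Most stretches were short. Over all 240 windows, with or without GAGAGA, the median of the longest GA run was 5 bases. It was also 5 at the other reproducible peaks, at those at small RNA genes and at candidates at such genes not in the list. A run of 10 or more was at 19 of the 240 peaks (7.92%, 5.13 to 12%), against 4.95% of other reproducible peaks and 1.46% of all candidates. The share with GAGAGA was 46.7% in the 60 peaks of highest signal and 36.7% in the 60 of lowest, with overlapping intervals. Of the printed windows, W06B11.7 and F54D5.22 carry a single short run each, and F52H2.13 carries several on both strands.

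Runs of alternating G and T bases were searched after the windows of these same peaks had been seen. A run of 10 or more was in 7.5% of the windows (4.8 to 11.5%) and in 4.73% of the other reproducible peaks (3.71 to 6%), with overlapping intervals. A run of 20 or more was in 9 of the 240 windows (3.75%, 1.99 to 6.97%), in 0.825% of the other reproducible peaks, in 0.676% of the candidates not in the list and in none of 311 peaks at small RNA genes, which allows up to 1.22%. The 9 include the pair of highest summits, at anr-20, which share 1 interval, and T13H2.7, whose printed window opens with a run of 91 bases. Reads in such repeats are hard to place, and the sources used here do not say how the authors' alignment treated them.

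The remaining motifs were not frequent. GTTCGA, the core of the B box of RNA polymerase III genes, was in 8.75% of the windows (5.79 to 13.0%), in 6.60% of the other reproducible peaks and in 43.7% of those at small RNA genes. CACGTG, an E-box, was in 7.92% (5.13 to 12%), in 12.2% of the other reproducible peaks and in 2.93% of the candidates not in the list. CCGCCC, a GC box, was in 11.2%, against 8.10% of the other reproducible peaks. TATAAA was in 5.42% (6.30% of others), GATAAG in 4.58% (7.73%), GAANNTTC, found in heat shock elements, in 6.25% (6.68%), and CTGTTTCA, the core of the element upstream of piRNA genes, in 2 windows (0.833%, against 1.05%). A match of letters is a description and not a bound site.

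A few peaks lay at other small RNA genes that the rule did not leave out. A microRNA gene was within 200 bp of 4 summits (1.67%, 0.65 to 4.21%). The share was 0.372% of all reproducible peaks (0.18 to 0.765%). It was 0.62% of the candidates at such genes that were not in the list (0.346 to 1.11%). These intervals overlap that of the 4 summits. F36H1.17 at mir-51 had a signal of 536.9, K01F9.6 at mir-80 had 327.5, Y37A1B.335 at mir-52 had 292.6 and B0361.13 at mir-2214 had 276.7. All 4 were named after their values were seen. The mir-51 and mir-52 microRNAs belong to 1 family, and mir-80 to the worm family related to fly bantam. A piRNA gene was within 200 bp of 1 summit (0.417%), beside 0.584% of all reproducible peaks. Near-identical copies of the window elsewhere in the genome were found for 7 of the 240 (2.92%), beside 2.33% of other reproducible peaks and 16.7% of those at small RNA genes.

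The limits of the rule fell among peaks of middling signal. The summit just inside the 200-bp margin was at linc-54, at 200 bp with a signal of 219.6, and the nearest one outside lay 207 bp from F54D5.19 with 290.2. The peak kept closest to a small RNA gene was that of F47G6.6, 107 bp from a tRNA gene with a signal of 259.0, and the one left out closest to the limit was that of F17C11.21, 99 bp from a snoRNA gene with 280.7. The exclusion removed 167 of the 407 summits at these genes. The lowest of the 240 signals was 166.2 to the digits given, at F33A8.11, F48D6.5 and F55A8.3, the last of which lies in an intron of egl-18, a GATA factor gene.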

How the data were processed

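Peak lists of 2 replicates of 1 group, their pool and the reproducible list were read on ce11; the ce10 lists were not used. The deposited signal is the authors' peak value against 1 control alignment, per the deposited notes; it ranks peaks within a list. No peak caller, aligner or reproducibility cutoff was given in the sources used here. Summits were placed by adding the offset column to the start. Genes came from Ensembl release 115 (WBcel235), and the sequence and the gene descriptions from RefSeq. A peak was met by a replicate where 1 bp overlapped one of its highest entries, as many as the reproducible list holds. Copies were sought with blastn 2.17.0, and the rest used Python 3.11.15, numpy 2.4.6, pandas 2.3.3 and scipy 1.17.1. Functions were checked on simulated positions first. The members, motifs and gene lists were chosen with earlier results of these data known.

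Named genes are those of the 15 highest peaks, lincRNA and antisense RNA genes with a peak, ncRNA genes with a symbol, those nearest each limit, the lowest peaks, up to 10 ranked in the first 100 of both replicates, and tts-1, tts-2, rncs-1, lep-5, yrn-1, rpr-1 and mrpr-1. Others are said to be chosen after their values were seen. Of the 240 entries, 7 share their interval with another entry and were kept. Neighbouring summits could also overlap the same replicate entry, and each then took its rank. The C16C2.7 summits of 483.9 and 200.4 both have ranks 165 and 91 for that reason. Alternatives changed the margin, the exclusion, the classes, the windows, the list length and the replicates used.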

Additional observations from a re-analysis of the deposited data

How the results depend on the processing

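The count of 240 became 138 with no margin, 407 without the exclusion of small RNA genes, 131 in the upper 50% of the list by signal and 17 for lincRNA and antisense RNA alone, each by construction of the rule. It ranged from 224 to 235 when the highest entries of a single replicate replaced the list. The share of summits inside the gene became 100% with no margin, 46.9% with 500 bp, 49.6% with whole intervals and 64.7% for the lincRNA and antisense RNA classes. The share of genes of 200 bp or longer became 49.1% with no margin, 25.3% without the exclusion and 84.6% for those 2 classes. The coding promoter share became 44.3% in the upper 50%, 23.5% for those 2 classes and 24.2% with a window of 500 bp up and 100 bp down. The share met by replicate 1 became 96.2% in the upper 50%, 92.1% with 2 times as many entries and 54.2% with 0.5 times as many. For replicate 2 these were 99.2%, 93.8% and 56.7%, and 88.2% for those 2 classes. The share of candidates in the list became 14.4% with no margin, 10.2% with 500 bp and 17.5% without the exclusion. Leaving out peaks near chd-7 and counting each interval once, both chosen after seeing the data, gave 237 and 236 peaks. The GAGAGA share was 53.3% with 100 bp either side of the summit and 30.4% with 50 bp. The median GC content stayed between 49.0 and 51.7%. No paired analysis was possible because there was 1 group. Read depth is unknown, and peaks of low signal were less often among the highest entries of both replicates.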
